A study of Mus musculus with 4 samples.

Results

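The 10 genes described here encode proteases, receptors and an enzyme by which mast cells are recognised. They are Cpa3, Cma1, Tpsab1, Tpsb2, Mcpt1, Mcpt2, Mcpt4, Kit, Hdc and Fcer1a, and were listed with earlier results of these data known. Every probe set of the array annotated to exactly 1 symbol, and that symbol among these, was taken, whatever its signal. All 10 were on the array, with 13 probe sets, out of 12393 genes measured. RNA came from 4 tumors, each on 1 Affymetrix Mouse Genome 430A 2.0 array. They grew under the skin of nude (NCR Nu/Nu) mice from iBMK cells, an immortalized mouse kidney epithelial line. All 4 were ATG5-/- and carried Bcl-2, so the controls share the loss of this autophagy gene and the survival protein. Cells making EGFP, the enhanced green fluorescent protein, gave 2 of the tumors, and cells making p62-EGFP, the autophagy adaptor p62 fused to that marker, gave the other 2. No treatment was given. The sources used here do not say if tumors of the same kind had separate hosts or cultures, so p-values measure only the spread between these tumors. The promoter of the transgenes and the age of the mice are likewise not given there. A nude mouse has no thymus and few mature T cells, but keeps mast cells and other myeloid cells, and the RNA of a tumor mixes that of the injected cells with that of host cells.

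Mast cells are tissue-resident granulocytes that arise from bone marrow progenitors and mature where they settle, along vessels and in connective tissue. Their granules hold histamine, the proteoglycan serglycin and large amounts of protease. The proteases are carboxypeptidase A3, tryptases, which cut after basic residues, and chymases, most of which cut after aromatic ones. Survival depends on the receptor Kit and its ligand, stem cell factor, and the best known trigger of granule release is antigen bound by IgE on the high-affinity IgE receptor. In skin, the site where these tumors grew, mast cells are normally of the connective tissue type. In tumors they are found mostly at the edge and around vessels.

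The values are MAS5 signals, linear intensities that the authors had scaled so that each array had the same trimmed mean, 150.04. Median signals ran from 57.7 to 60.9. The ratio of 3' to 5' signal of Gapdh, a measure of RNA integrity, ranged from 0.707 to 0.740 over the 4 arrays, and that of Actb from 1.28 in EGFP tumor 2 to 1.55 in p62-EGFP tumor 2. EGFP tumor 2 stood apart in white blood cell transcripts: 8 pan-leukocyte genes had a summed signal of 6326 there, 428.2 in EGFP tumor 1, and 644.1 and 783.7 in p62-EGFP tumors 1 and 2. Skeletal muscle transcripts summed to 4262 in p62-EGFP tumor 1, against 47.1 in p62-EGFP tumor 2 and 35.7 and 510.5 in the EGFP tumors. Results on the mast cell genes are therefore given with and without these tumors. Where 2 signals are given for a pair of tumors, the first is tumor 1 and the second tumor 2.

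Signals of most of the mast cell genes were lower in the 2 tumors with p62-EGFP than in the 2 with EGFP alone, and no single probe set passed the test. With the brightest probe set of each gene and no filter on dim ones, 8 of the 10 genes lay lower in both p62-EGFP tumors, against 18.0% of all 12393 genes. As the genes were listed with earlier results of these data known, that share is a reference and not a test. The other 2, Mcpt1 and Kit, overlapped between groups. The median difference of the 10 genes, p62-EGFP minus EGFP, was -1.43 on the scale log2(signal + 16), which understates the change of dim probe sets, and the median over all genes was 0.03. Of the 13 probe sets, 5 were bright enough to enter the limma fit (a mean log2 value of at least 5.6, near a signal of 32.7), 1 each for Cpa3, Cma1, Tpsab1, Mcpt2 and Kit. Among these 5, 0 passed at a Benjamini-Hochberg adjusted p of 0.05, and 4 had an unadjusted p below it with lower signals. Over all 13576 tested probe sets 0.0295% were lower at the adjusted and 5.77% at the unadjusted threshold. Most of the 5 reached the limit through their EGFP signals, so a count over them is not support for a difference. In a limma fit of all 22626 probe sets without that limit, 7 of the 13 had an unadjusted p below 0.05, all 7 with lower signals, against 11.8% of all probe sets in either direction, and 0 passed after adjustment, the lowest adjusted p being 0.246.

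**Figure D1:**
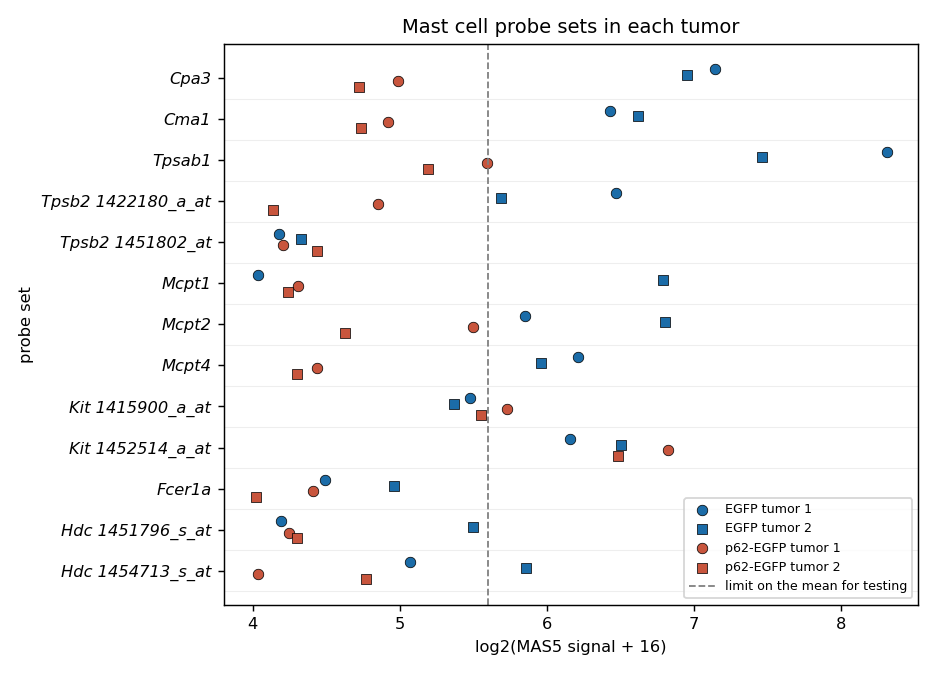
Signal of the 13 mast cell probe sets in each tumor, as log2(MAS5 signal + 16) on the horizontal axis; blue symbols are EGFP tumors, red symbols p62-EGFP tumors, circles tumor 1 and squares tumor 2, and the dashed line is the limit of 5.6 that the mean of 4 tumors had to reach for testing. For Cpa3, Cma1, Tpsab1 and Mcpt4 both blue symbols lie well to the right of both red ones; for Mcpt1 only EGFP tumor 2 does, and the Kit symbols lie close together.

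A signal of 32.7 or more was reached by 7 of the 10 genes in EGFP tumor 1 and by 9 in EGFP tumor 2, but by 1 in each p62-EGFP tumor, which was Kit both times. Over all genes the share at or above that signal was nearly the same in the 4 tumors, from 62.3% to 64.1%. In whole-tumor RNA, fewer mast cells and less of these transcripts per mast cell cannot be told apart.

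Cpa3 encodes carboxypeptidase A3, a zinc exopeptidase stored in the granules of nearly all mast cells. Its signal was 125.3 and 107.3 in the EGFP pair and 15.8 and 10.3 in the p62-EGFP pair. The groups did not overlap, and the lower EGFP tumor was 6.79 times the higher p62-EGFP tumor. The means were 116 ± 12.7 and 13.1 ± 3.89 (SD, n = 2 each), with a log2 difference of -2.19 (SE 0.21) that did not pass (limma adjusted p = 0.0842). This was the lowest adjusted p among the mast cell probe sets, and in size the difference was the 18th lowest of the 13576 tested.

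Tpsab1 and Tpsb2 encode the tryptases of mouse mast cells, also called mast cell proteases 7 and 6. Tpsab1 had signals of 301.2 and 159.5 in the EGFP pair and 32.1 and 20.4 in the p62-EGFP pair. EGFP tumor 1 was the highest and the groups did not overlap (log2 difference -2.50, SE 0.33, limma adjusted p = 0.156). Tpsb2 had 2 probe sets, which did not behave alike. On 1422180_a_at it read 72.7 and 35.7 in the EGFP pair and 12.9 and 1.6 in the p62-EGFP pair, again highest in EGFP tumor 1 and without overlap (log2 difference -1.59, SE 0.39 in the fit without a limit on dim probe sets). The other, 1451802_at, read between 2.1 and 5.7 in all tumors, too dim to tell them apart. The tryptase genes are closely related, and how far their probe sets share signal is not known here.

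The chymase-type proteases were measured by 1 probe set each. Cma1, or mast cell protease 5, read 70.5 and 82.4 in the EGFP pair and 14.3 and 10.8 in the p62-EGFP pair. Its log2 difference was -1.69 (SE 0.21, limma adjusted p = 0.131), and the EGFP tumors were close to each other. Mcpt4, the main chymase of connective tissue mast cells, read 58.1 and 46.3 against 5.7 and 3.7. The groups did not overlap, and the smallest difference between a p62-EGFP and an EGFP tumor was -1.52 on the log2 scale. Its mean log2 value of 5.23 lay below the limit for testing, and the log2 difference was -1.72 (SE 0.19, limma adjusted p = 0.264 in the fit without that limit).

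Mcpt1 and Mcpt2 are the proteases of mucosal mast cells, the type found in gut and airway linings. Mcpt1 was at 94.5 in EGFP tumor 2 and at 0.4 in EGFP tumor 1, with 3.9 and 2.9 in the p62-EGFP tumors. A single tumor was high, and the other 3 were too dim to be put in order. Mcpt2 read 41.7 and 95.8 in the EGFP pair and 29.1 and 8.7 in the p62-EGFP pair. Here too EGFP tumor 2 was the highest, and the gap between EGFP tumor 1 and p62-EGFP tumor 1 was narrow, a log2 difference of -0.36. The Mcpt2 difference between groups was -1.27 (SE 0.44, limma adjusted p = 0.306), and it was -0.79 without EGFP tumor 2 and -0.83 without p62-EGFP tumor 2. Between the EGFP tumors (tumor 2 minus tumor 1, log2 scale), Cpa3, Cma1 and Mcpt4 differed by -0.20, 0.19 and -0.25. The tryptases Tpsab1 and Tpsb2 (1422180_a_at) differed by -0.85 and -0.78, and Mcpt1 and Mcpt2 by 2.75 and 0.95.

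**Figure D2:**
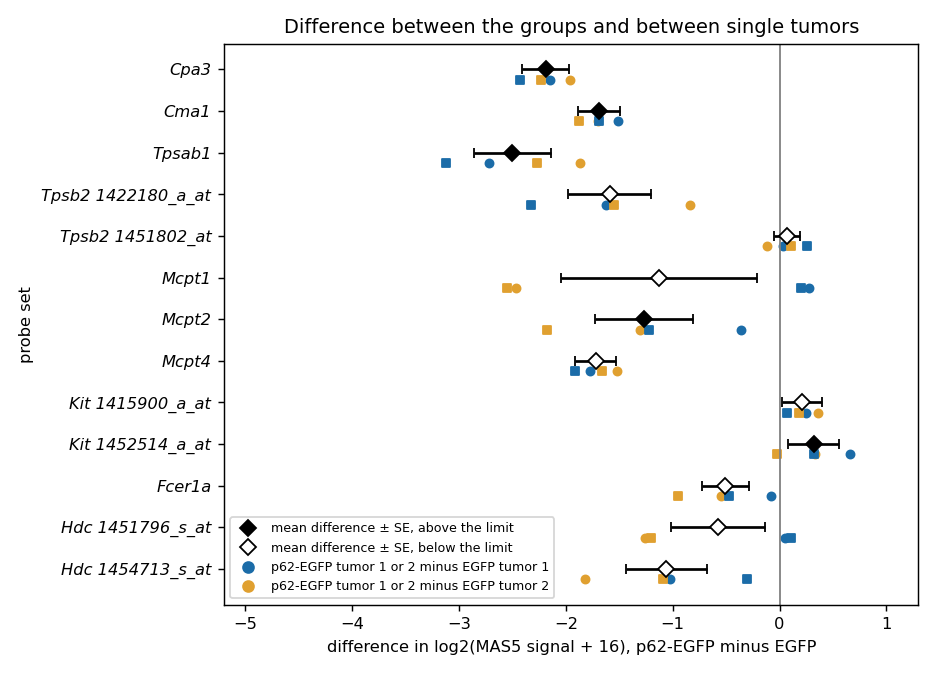
Difference in log2(MAS5 signal + 16) between p62-EGFP and EGFP tumors for the 13 probe sets; diamonds are group differences with the SE of the limma fit without a limit on dim probe sets (filled where the mean reached 5.6), and below each are the differences of p62-EGFP tumors 1 (circle) and 2 (square) from EGFP tumor 1 (blue) and EGFP tumor 2 (yellow). All 4 tumor-to-tumor differences are below 0 for Cpa3, Cma1, Tpsab1, Mcpt2, Mcpt4, Fcer1a and 1 probe set each of Tpsb2 and Hdc, while Mcpt1 turns from -2.47 and -2.55 against EGFP tumor 2 to 0.28 and 0.20 against EGFP tumor 1.

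As a description only, the sequence around the start sites of these proteases is shown for those with a promoter entry. The entries are the RefSeq promoters of build GRCm38.p6, which give 250 bases before to 50 after each start. Entries were found for 7 of the 10 genes, and those of Cpa3, Cma1, Mcpt1 and Mcpt4 are printed, the proteases among them. They are written 5' to 3' on the gene's own strand. Capitals mark matches to the GATA motif, searched as AGATAA or TGATAA or AGATAG or TGATAG on both strands. GATA2 is a transcription factor that mast cells need. The windows are chr3:20242132-20242431 (minus strand) for Cpa3, chr14:55944626-55944925 (minus strand) for Cma1, chr14:56017714-56018013 (plus strand) for Mcpt1 and chr14:56062261-56062560 (minus strand) for Mcpt4.
Cpa3: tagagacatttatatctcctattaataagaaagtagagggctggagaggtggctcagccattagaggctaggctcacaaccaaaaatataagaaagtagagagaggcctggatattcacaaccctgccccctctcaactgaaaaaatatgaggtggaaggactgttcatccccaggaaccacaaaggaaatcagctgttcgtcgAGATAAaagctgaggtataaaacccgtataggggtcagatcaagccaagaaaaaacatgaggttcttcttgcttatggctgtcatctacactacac
Cma1: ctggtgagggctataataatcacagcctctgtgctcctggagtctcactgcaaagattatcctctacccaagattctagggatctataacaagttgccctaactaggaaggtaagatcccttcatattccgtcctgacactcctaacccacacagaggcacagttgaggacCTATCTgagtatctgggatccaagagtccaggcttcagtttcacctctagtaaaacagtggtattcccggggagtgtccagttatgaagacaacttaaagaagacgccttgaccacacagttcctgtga
Mcpt1: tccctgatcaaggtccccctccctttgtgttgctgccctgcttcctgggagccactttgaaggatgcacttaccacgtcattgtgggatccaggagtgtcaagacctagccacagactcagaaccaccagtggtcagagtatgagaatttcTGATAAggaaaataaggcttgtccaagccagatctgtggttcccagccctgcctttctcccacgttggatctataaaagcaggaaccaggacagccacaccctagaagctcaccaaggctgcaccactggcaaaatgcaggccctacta
Mcpt4: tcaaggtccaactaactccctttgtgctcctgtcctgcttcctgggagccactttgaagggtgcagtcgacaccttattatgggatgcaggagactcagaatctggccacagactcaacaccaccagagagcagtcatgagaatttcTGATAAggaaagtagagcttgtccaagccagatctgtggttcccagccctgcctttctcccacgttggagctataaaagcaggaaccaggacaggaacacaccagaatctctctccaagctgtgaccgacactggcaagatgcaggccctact

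Each of these 4 windows held 1 match, whose first base lay 46 bases before the start in Cpa3, 79 in Cma1, 99 in Mcpt1 and 103 in Mcpt4. In Cma1 it is on the opposite strand. The windows of Fcer1a and Hdc also held 1 match each. The 2 entries of Kit held none and are nearly the same window, starting at 75574737 and 75574741 on chr5. A match was thus found in 6 of the 8 entries, or 6 of the 7 genes with an entry, against 29.8% of all 32851 promoter entries. The E-box motif CANNTG is bound by MITF and other basic helix-loop-helix factors and was searched on both strands. It occurred in 6 of the 8 entries of these genes, both Kit entries among them, and in 72.3% of all. The Mcpt1 and Mcpt4 windows, both counted among the 6 with a GATA match, were 80.6% identical in a global alignment. They hold the same GATA match in nearly the same surroundings. The other pairs of windows with a match were 43.6% to 49.0% identical. A match describes letters in a window and does not show binding. Any part of GATA factors in the differences between tumors was not tested.

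Kit, the receptor for stem cell factor, did not share the direction of the proteases. On the brighter probe set, 1452514_a_at, it read 55.6 and 74.3 in the EGFP pair and 97.3 and 73.3 in the p62-EGFP pair. The groups overlapped, with a log2 difference of 0.32 (SE 0.22, limma adjusted p = 0.533). On 1415900_a_at it read 28.5 and 25.3 against 37.0 and 30.7, without overlap and higher in the p62-EGFP tumors, by 0.21 on the log2 scale (SE 0.19, limma adjusted p = 0.676 in the fit without the limit). Both p62-EGFP tumors were above both EGFP tumors for 26.8% of all genes. Kit is also made by melanocytes and by some progenitor and epithelial cells. The melanocyte genes other than Mitf read at most 19.7 in any tumor, and which cells gave the Kit signal was not tested.

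Fcer1a, the subunit of the high-affinity IgE receptor that binds IgE, was dim throughout. It read 6.5 and 15.2 in the EGFP pair and 5.3 and 0.2 in the p62-EGFP pair. The groups did not overlap, but the gap was as narrow as 6.5 against 5.3 (log2 difference -0.51, SE 0.22, limma adjusted p = 0.453 in the fit without the limit). Hdc makes histamine from histidine. Its brighter probe set, 1454713_s_at, read 17.6 and 42.2 against 0.5 and 11.3, lower without overlap (log2 difference -1.06, SE 0.38, limma adjusted p = 0.410 in the same fit). The second, 1451796_s_at, read 29.4 in EGFP tumor 2 and 2.3, 3.0 and 3.7 in the other tumors, so only EGFP tumor 2 was high. EGFP tumor 2 was also the tumor with the high leukocyte signals, and their part in the Hdc result was not tested.

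The calls depended on which tumors were in the fit. For Cpa3, Cma1, Tpsab1, Mcpt2, Mcpt4 and the brighter Tpsb2 probe set the groups did not overlap, so leaving out a tumor could not change the direction. Where only EGFP tumor 2 was high, the direction did change without that tumor. The log2 difference went from -1.13 to 0.24 for Mcpt1 and from -0.58 to 0.08 for Hdc on 1451796_s_at. Without EGFP tumor 1, Cpa3, Cma1, Tpsab1 and Mcpt2 passed (limma adjusted p = 1.32e-04, 3.54e-04, 1.45e-04 and 0.00407), where 9.59% of all tested probe sets were called lower. Without EGFP tumor 2, Cpa3, Cma1 and Tpsab1 passed (limma adjusted p = 4.44e-04, 0.00395 and 4.13e-05), where 4.40% of all were called lower. Their log2 differences without EGFP tumor 2 were -2.29, -1.60 and -2.92, as large as or close to those with it. In these fits only the 2 p62-EGFP tumors give a measure of spread, and the lone EGFP tumor is assumed to vary like them. Without p62-EGFP tumor 1 or tumor 2, no mast cell probe set passed and 0.00% of all were called lower (limma adjusted p = 0.971 and 0.960 for Cpa3). The median difference of the 10 genes was -1.67 without EGFP tumor 1, -1.20 without EGFP tumor 2, -1.74 with p62-EGFP tumor 1 left out and -1.33 with p62-EGFP tumor 2 left out. Set against EGFP tumor 1 alone, both p62-EGFP signals lay lower for 8 of the 10 genes (all genes: 35.9%), and against EGFP tumor 2 alone for 9 of the 10 (all genes: 33.1%).

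**Figure D3:**
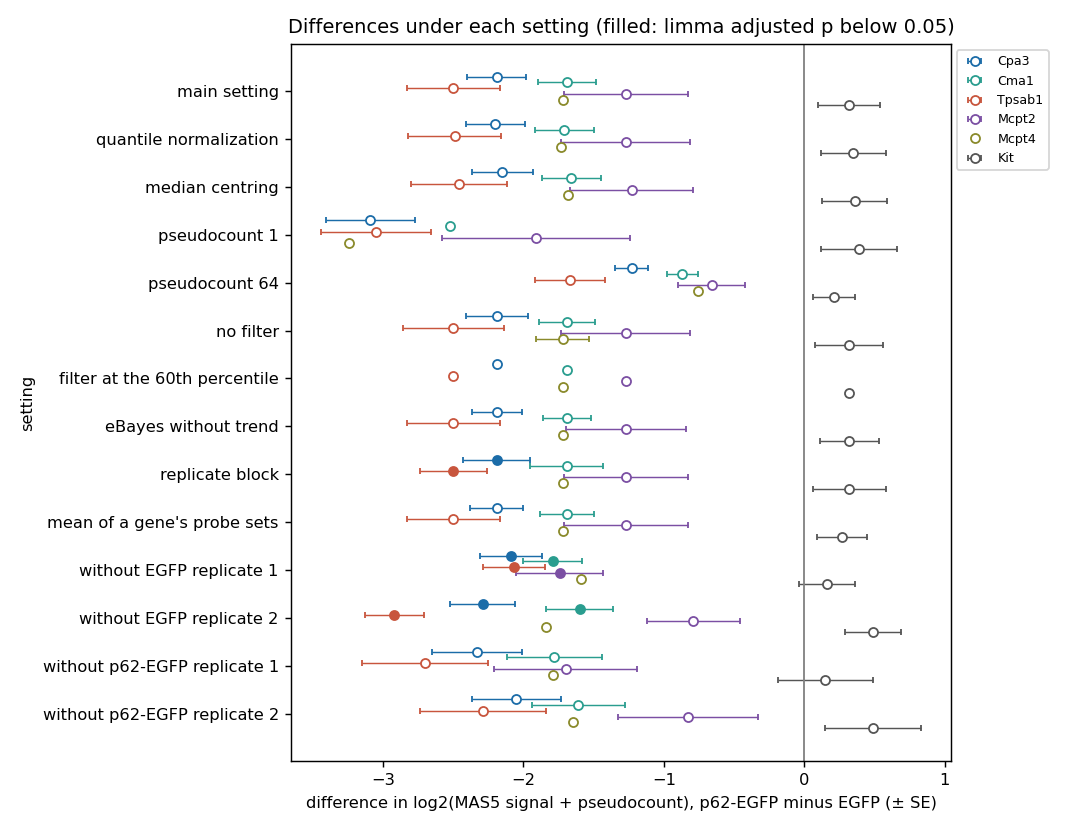
Difference between p62-EGFP and EGFP tumors for Cpa3, Cma1, Tpsab1, Mcpt2, Mcpt4 and Kit under each setting of the analysis, in log2 units with the SE of the limma fit (no bar where the probe set was too dim for that fit); filled symbols passed at an adjusted p of 0.05. The 5 proteases stay below 0 and Kit above 0 in every setting, while filled symbols occur with a replicate block or with 1 EGFP tumor left out. For the 5 proteases the groups did not overlap, so leaving out a tumor could not change the sign.

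Of 20 further mast cell genes, 12 were measured. None passed (limma), 4 were lower and 0 higher in both p62-EGFP tumors (all genes: 18.0% and 26.8%), and their median log2 difference was -0.29. Gata1, 1 of the 4, was dim, and its gap was as narrow as 13.7 in EGFP tumor 2 against 13.6 in p62-EGFP tumor 2. Ms4a2, the beta subunit of the IgE receptor and a defining mast cell transcript, read only 6.3 and 4.3 in the EGFP and 6.5 and 2.0 in the p62-EGFP tumors, so this marker was near 0 in all 4. Gata2 read 146.8 and 112.5 against 89.1 and 85.4, lower without overlap (log2 difference -0.49, SE 0.19, limma adjusted p = 0.342). Mitf, a transcription factor of mast cells and melanocytes, read 107.6 and 159.9 against 81.8 and 77.8 (log2 difference -0.62, SE 0.22, limma adjusted p = 0.316). Tph1, which starts serotonin synthesis, read 13.6 and 17.9 against 4.4 and 4.0, too dim to be tested. Srgn, the serglycin core protein that other leukocytes make as well, read 1089 in EGFP tumor 2 and between 114.6 and 175.4 in the other 3.

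Transcripts of factors that nourish or attract mast cells were measured for 11 of 14 genes. None passed (limma), 3 were lower and 1 higher in both p62-EGFP tumors (all genes: 18.0% and 26.8%), with a median of -0.16. Kitl, which encodes stem cell factor, read 356.4 and 252.8 in the EGFP and 330.5 and 327.1 in the p62-EGFP tumors, with the groups overlapping (log2 difference 0.12, SE 0.20, limma adjusted p = 0.798). Cxcl12, a chemokine for progenitors, read 800.6 and 449.6 against 273.8 and 213.9 (log2 difference -1.26, SE 0.30, limma adjusted p = 0.221). Tgfb1, a cytokine that attracts mast cells and shapes their proteases, read 265.9 and 243.0 against 119.0 and 121.1 (log2 difference -0.99, SE 0.16, limma adjusted p = 0.179). Il33, an alarmin that activates mast cells, was the gene higher in both p62-EGFP tumors, at 43.4 and 53.4 against 6.7 and 30.1. Its mean log2 value of 5.51 lay below the limit for testing, and its EGFP signals were far apart. Il3, Il4 and Il9 read at most 6.2 in every tumor.

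Signalling genes of the IgE receptor, 18 of 19 measured, differed most between EGFP tumor 2 and the other tumors. Their median difference was -0.68, and it was 0.08 without EGFP tumor 2. Among them 5 were lower and 1 higher in both p62-EGFP tumors (all genes: 18.0% and 26.8%), with none past the threshold (limma). These counts rest partly on dim signals or narrow gaps, in genes named after their values were seen. Plcg1, the gene that was higher, read at most 0.8 in every tumor. Btk, among the lower, read 10.3 in EGFP tumor 1 against 10.0 in p62-EGFP tumor 1. Fcer1g, the gamma subunit shared with receptors of other leukocytes, read 44.4 and 887.1 in the EGFP pair and 80.9 and 96.9 in the p62-EGFP pair. Fyn, a Src family kinase also made outside blood cells, had mean signals of 324 ± 34.6 and 199.8 ± 0.212 (SD, n = 2 each). Genes of histamine, lipid mediators and granule proteoglycan, 12 of 16 measured, had a median of -0.23, with 4 lower and 1 higher in both p62-EGFP tumors (all genes: 18.0% and 26.8%) and none past the threshold (limma). Alox5ap, needed for leukotriene synthesis, read 455.7 in EGFP tumor 2 and 37.1 to 94.1 in the other tumors.

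Cma1, Mcpt1, Mcpt2 and Mcpt4 lie on chromosome 14 among other serine protease genes of immune cells. Of 10 such neighbours 9 were measured, with a median difference of 0.03, 0 lower and 3 higher in both p62-EGFP tumors (all genes: 18.0% and 26.8%). Gzmb, a granzyme of cytotoxic cells, read 985.1 in EGFP tumor 2 and at most 6.2 elsewhere. Gzmc read 20.7 and 12.2 in the p62-EGFP and 0.9 and 7.3 in the EGFP tumors, and the other 7 were at or below 5.5 in every tumor. Among these 7 were the basophil protease gene Mcpt8 and the neutrophil gene Ctsg, named here after their values were seen.

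Markers of other cell types were set beside the mast cell genes. The 4 measured of 6 basophil genes summed to 24.0 and 32.7 in the EGFP and 25.2 and 29.9 in the p62-EGFP tumors, and the 6 measured of 8 eosinophil genes to 12.7 and 25.3 against 18.3 and 28.8. None of either list reached a signal of 32.7 in any tumor. All 8 pan-leukocyte genes overlapped between groups, with a median difference of -1.19 that was 0.56 without EGFP tumor 2. Over all genes, 18.0% lay lower and 26.8% higher in both p62-EGFP tumors, and the rest overlapped. Ptprc, the common leukocyte antigen CD45, had a signal of 60.8 and 1264 in the EGFP pair, and of 95.9 and 114.7 in the p62-EGFP pair. In EGFP tumor 1 all 8 leukocyte genes were lower than in both p62-EGFP tumors, and 8 of the 10 mast cell genes were higher there (all genes: 35.9% higher). The share of all genes lower in EGFP tumor 1 was not counted, so the leukocyte and macrophage counts against that tumor have no such reference. The 12 macrophage genes likewise overlapped (median -0.70, and 0.70 without EGFP tumor 2), and 11 of them were lower in EGFP tumor 1 than in both p62-EGFP tumors. Lyz2, a macrophage lysozyme, read 314.1 and 1455 against 643.5 and 686.0. The summed signal of the 10 mast cell genes was 749.6 and 753.2 in the EGFP pair and 216.9 and 143.2 in the p62-EGFP pair. The close EGFP sums hide opposite differences between those tumors. Tpsab1 read 301.2 and 159.5 in the EGFP pair, Mcpt1 0.4 and 94.5, and Mcpt2 41.7 and 95.8. In all, 6 of the 10 genes were higher in EGFP tumor 2 than in EGFP tumor 1. The share of all genes higher in EGFP tumor 2 was not counted. Kit gave 97.3 and 73.3 of the p62-EGFP sums.

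Of the endothelial genes, for 9 of 10 both p62-EGFP signals lay lower (all genes: 18.0%), none passed (limma), and the median was -0.64, or -0.55 without EGFP tumor 2. They summed to 507.7 and 629.0 in the EGFP and 254.0 and 328.7 in the p62-EGFP tumors. Pecam1, the endothelial adhesion molecule CD31, read 63.7 and 121.8 against 41.1 and 54.9, and Esam, a junction protein, 85.3 and 107.7 against 45.5 and 55.3. Connective tissue genes, 9 of 9 measured, had a median of 0.06, with 0 lower and 1 higher in both p62-EGFP tumors, and kidney epithelial genes, 7 of 8 measured, a median of 0.42, with 0 lower and 2 higher. Over all genes these shares were 18.0% lower and 26.8% higher. The part of vessel, leukocyte or tumor cell content in the mast cell result was not tested.

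**Figure D4:**
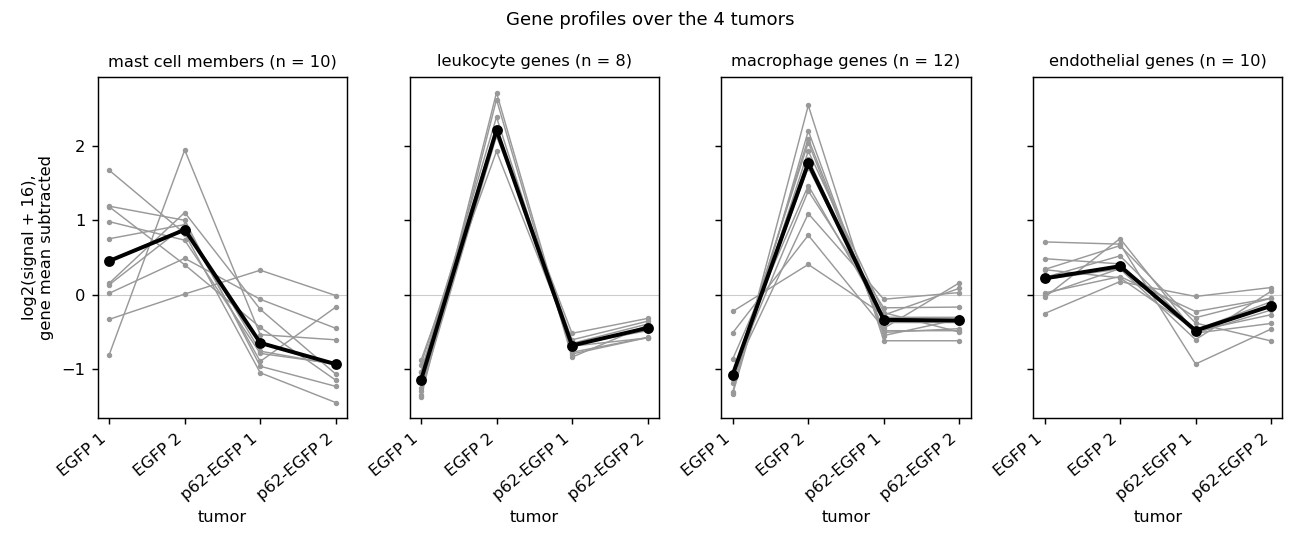
Profiles of the mast cell, pan-leukocyte, macrophage and endothelial genes over the 4 tumors, as log2(MAS5 signal + 16) with each gene's mean over the tumors subtracted; grey lines are genes (brightest probe set each), the black line their median. The mast cell and endothelial medians are above 0 in both EGFP tumors and below 0 in both p62-EGFP tumors, while the leukocyte and macrophage medians are above 0 in EGFP tumor 2 alone.

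Profiles like that of Cpa3 were sought among tested probe sets of other genes with exactly 1 symbol, passing over clone and predicted-gene names. Among these, the profile most like that of Cpa3 over the 4 tumors was that of Ighm, the immunoglobulin mu heavy chain, on probe set 1427870_x_at. How far this probe set shares signal with related genes is not known here. Likeness was the root mean square distance between log2 values centred on each probe set's own mean, and it was 0.11 for Ighm, which read 335.0 and 235.8 in the EGFP and 51.5 and 44.4 in the p62-EGFP tumors. The next were Junb (0.29), Malat1 (0.35), Slco3a1 (0.40), H2-D1 (0.43), Egr1 (0.44), Poglut1 (0.45) and Zfp36 (0.45). By the same measure Mcpt4 lay at 0.24, Cma1 and Tpsab1 at 0.28 each, and Tpsb2 (1422180_a_at) at 0.40, while Mcpt1 lay at 1.17 and the Kit probe sets at 1.20 and 1.27. With 4 tumors this distance only describes these arrays. The 6 measured of 8 B and plasma cell genes had a median difference of -0.14. Of these, 2 were lower and 1 higher in both p62-EGFP tumors (all genes: 18.0% and 26.8%).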

How the data were processed

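The authors deposited 1-colour MAS5 signal intensities on a linear scale (MAS5 per the submitters' processing notes, version, settings and detection calls not given in the sources used here). Trimmed means, without 2% of probe sets at each end, were 150.04 on all 4 arrays, so the deposited scaling was kept. Leaving out 64 control probe sets left 22626. Genes were named through GEO's platform annotation; 20380 probe sets had 1 symbol, 691 several and 1555 none. Entrez identifiers of 20351 matched RefSeq genes of assembly GRCm38.p6, used for names and chromosomes. Signals became log2(signal + 16); 13576 probe sets with a mean at or above the 40th percentile entered limma 3.58.1 (lmFit, eBayes with trend, R 4.3.3). P-values were two-sided and adjusted over all of them by Benjamini and Hochberg's method. The fit was tried on simulated data with a common spread for all probe sets, unlike these arrays, so that trial does not bear on the results here. Lists were described by counts and medians, without a test. An exact test of 2 against 2 cannot go below p = 0.333, and the number of arrays limits the precision. The text names all members, some of the further mast cell genes and ligands, in each other list genes from among its 3 brightest unless stated, and 8 genes by likeness to Cpa3. The members and lists were chosen with earlier results of these data known. Alternatives were quantile and median scaling, pseudocounts of 1 and 64, no filter and the 60th percentile, no trend, a replicate block, averaged probe sets and leaving out each tumor. Python 3.11.15 and matplotlib 3.10.9 drew the figures.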

Additional observations from a re-analysis of the deposited data

How the results depend on the processing

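The 8 of 10 mast cell genes lower in both p62-EGFP tumors stayed 8 under both scalings and averaged probe sets. They were also 8 with both pseudocounts, and 8 to 9 when 1 tumor was left out. A pseudocount keeps the order of the tumors within a probe set, and with a tumor left out the count cannot fall. These latter counts are therefore no check of the result. Their median difference was -2.62 with a pseudocount of 1 and -0.69 with 64, and -1.74 to -1.20 with 1 tumor left out. Under averaged probe sets it was -1.20 and under median centring -1.39. The count of mast cell probe sets past the threshold was 2 with a replicate block (Cpa3 and Tpsab1, limma adjusted p = 0.0381 and 0.0227, where 0.169% of all tested probe sets were called lower), 0 to 4 with 1 tumor left out and 0 under the other alternatives that tested any. With the filter at the 60th percentile none of these probe sets was bright enough to be tested. The replicate numbers are only shared labels (r of the same-numbered deviations 0.082 across tested probe sets), so the block is not a known pairing. Over the whole array the 12 calls became 6 without a filter, 7 with the 60th percentile, 37 with the replicate block, 1 with averaged probe sets and 0 to 2842 with 1 tumor left out. No mast cell probe set passed in the main fit, so there was no call that could reverse. Among probe sets too dim to be tested, the log2 differences of Mcpt1 and Hdc (1451796_s_at) changed sign without EGFP tumor 2, to 0.24 and 0.08. That of Tpsb2 on 1451802_at was near 0 and became -0.04 without p62-EGFP tumor 2. In signals this dim, no detection calls were used, and differences among values near 0 cannot be read.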
